A study of Mus musculus with 12 samples.

Results

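RNA-seq levels of 43 DNA replication and S-phase genes were examined in 12 libraries of 3T3-L1 adipocytes, mouse fibroblasts that become fat-storing cells when differentiated in culture. The genes were taken by symbol from a list of factors that license, fire and copy replication origins, supply nucleotides and control entry into S phase, and where a symbol was carried by more than 1 feature the feature with the highest mean count was used. Of the 43 genes, 40 were matched among the 27473 features of the deposited count table (Cdc6, Tk1 and Chaf1a were not analysed here), and 39 passed the filter on low counts. The exception was Lig1, the ligase that joins Okazaki fragments, which stayed between 0.029 and 0.42 CPM (counts per 1000000 counts of a library, TMM-scaled) in the 12 libraries.

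Replication begins when the Mcm2 to Mcm7 helicase is loaded onto origins with the help of Cdt1, a step called licensing that is limited to the time before S phase. Licensed origins then fire: GINS and Mcm10 activate the helicase, polymerase alpha and primase start new strands, and the clamp Pcna, placed by the RFC clamp loader, holds the polymerases on DNA. E2F transcription factors switch many of these genes on before S phase, and most mature adipocytes have left the cell cycle, so their transcripts are usually low in differentiated cultures.

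All 12 cultures were 3T3-L1 cells differentiated with dexamethasone, IBMX and insulin and transduced as mature adipocytes on day 8 with lentivirus, for 2 days according to the labels, with harvest after 4 days. The groups, of 3 libraries each, were GFP and Dnmt3a, expressed from the pCDH vector, and the hairpin groups shScr, with a scrambled sequence, and shDnmt3a, directed at Dnmt3a. Dnmt3a is a methyltransferase that places new methyl groups on DNA, and the series asks how gaining or losing it changes the adipocyte transcriptome. The RNA-seq measured transcripts, and DNA methylation of these genes was not analysed here. The series describes biological triplicates, but the labels name no separate cultures, so the p-values cover only how much these libraries vary, which can be technical.

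Total counts ran from 29084732 to 47341091 per library, of which the members took between 0.113% and 0.1303%. Pairs of replicates differed by more than sampling noise (chi-square of their counts divided by its degrees of freedom 2.44 to 10.1). Dnmt3a itself stood at 93.2, 90.7 and 96.6 CPM in GFP, 2743, 2776 and 2730.0 in Dnmt3a, 81.2, 86.3 and 78.5 in shScr and 40.95, 39.4 and 39.5 in shDnmt3a, so the libraries followed their labels. The adipocyte markers Adipoq and Fabp4 were present in every library, at or above 1686 and 3789 CPM. Of 12 leukocyte markers, Adgre1 and Laptm5 had no count in any library and Ptprc stayed at or below 0.227 CPM, while others were present, up to 18.1 CPM for Mpeg1 in shScr and 11.8 for Cd53 in shDnmt3a.

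Promoter sequence is shown first for 8 members, chosen after their values were seen as examples of genes with and without a match to an E2F octamer that fell, rose or were not called on overexpression. Each line gives 250 bases before and 50 bases after the RefSeq gene start, 5′ to 3′ on the gene's own strand (GRCm38.p6), with every match to the E2F octamers TTTCCCGC, TTTGGCGC, TTTCGCGC or TTTGCCGC, on either strand, in capitals. The first 5 genes carry such a match and fell when Dnmt3a was overexpressed, Rfc3 carries 2 and was not called, Rrm2 carries none and fell, and Brca1, which carries none, rose. Mcm3 lies at chr1:20820263-20820562 (minus strand), Mcm5 at chr8:75109259-75109558 (plus strand), Mcm6 at chr1:128359656-128359955 (minus strand), Cdt1 at chr8:122567765-122568064 (plus strand), E2f2 at chr4:136172024-136172323 (plus strand), Rfc3 at chr5:151651159-151651458 (minus strand), Rrm2 at chr12:24708004-24708303 (plus strand) and Brca1 at chr11:101551906-101552205 (minus strand).
Mcm3: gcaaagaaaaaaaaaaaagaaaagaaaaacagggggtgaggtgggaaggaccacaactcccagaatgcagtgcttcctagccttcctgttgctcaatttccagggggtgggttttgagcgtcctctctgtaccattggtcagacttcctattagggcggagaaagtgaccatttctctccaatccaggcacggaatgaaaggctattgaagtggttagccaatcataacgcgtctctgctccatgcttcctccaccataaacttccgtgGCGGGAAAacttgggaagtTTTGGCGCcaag
Mcm5: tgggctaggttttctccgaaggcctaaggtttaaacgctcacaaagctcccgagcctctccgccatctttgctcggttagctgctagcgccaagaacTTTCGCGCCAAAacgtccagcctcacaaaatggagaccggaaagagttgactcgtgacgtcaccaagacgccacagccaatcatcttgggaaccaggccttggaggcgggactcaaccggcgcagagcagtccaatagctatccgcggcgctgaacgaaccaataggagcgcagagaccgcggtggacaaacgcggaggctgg
Mcm6: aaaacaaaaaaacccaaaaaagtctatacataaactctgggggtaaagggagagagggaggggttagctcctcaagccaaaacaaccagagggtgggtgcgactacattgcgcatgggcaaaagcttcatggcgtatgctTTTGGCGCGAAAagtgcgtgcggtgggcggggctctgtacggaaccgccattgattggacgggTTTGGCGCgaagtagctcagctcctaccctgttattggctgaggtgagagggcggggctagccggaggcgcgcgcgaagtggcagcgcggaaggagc
Cdt1: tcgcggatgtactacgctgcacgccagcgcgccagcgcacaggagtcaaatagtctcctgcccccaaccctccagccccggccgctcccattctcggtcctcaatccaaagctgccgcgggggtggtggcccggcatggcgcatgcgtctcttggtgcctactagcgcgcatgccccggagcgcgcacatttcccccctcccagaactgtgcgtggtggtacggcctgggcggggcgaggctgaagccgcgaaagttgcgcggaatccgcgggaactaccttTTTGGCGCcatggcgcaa
E2f2: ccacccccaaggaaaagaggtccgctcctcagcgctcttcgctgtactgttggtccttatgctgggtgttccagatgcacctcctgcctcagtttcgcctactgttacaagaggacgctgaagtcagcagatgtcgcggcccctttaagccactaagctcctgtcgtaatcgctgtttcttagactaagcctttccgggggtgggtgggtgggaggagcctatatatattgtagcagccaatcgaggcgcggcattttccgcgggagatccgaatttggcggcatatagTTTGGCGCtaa
Rfc3: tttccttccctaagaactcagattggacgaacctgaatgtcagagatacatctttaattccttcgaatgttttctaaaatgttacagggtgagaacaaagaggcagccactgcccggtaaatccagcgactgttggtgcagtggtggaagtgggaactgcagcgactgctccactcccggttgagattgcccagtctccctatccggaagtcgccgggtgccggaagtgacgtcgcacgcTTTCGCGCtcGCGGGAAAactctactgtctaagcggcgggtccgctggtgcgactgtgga
Rrm2: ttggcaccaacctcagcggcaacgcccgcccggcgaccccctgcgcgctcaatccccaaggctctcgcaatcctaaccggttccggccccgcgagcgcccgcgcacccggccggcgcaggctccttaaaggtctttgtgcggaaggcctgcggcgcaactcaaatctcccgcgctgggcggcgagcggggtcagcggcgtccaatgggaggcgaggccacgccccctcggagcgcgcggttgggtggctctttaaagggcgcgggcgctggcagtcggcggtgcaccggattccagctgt
Brca1: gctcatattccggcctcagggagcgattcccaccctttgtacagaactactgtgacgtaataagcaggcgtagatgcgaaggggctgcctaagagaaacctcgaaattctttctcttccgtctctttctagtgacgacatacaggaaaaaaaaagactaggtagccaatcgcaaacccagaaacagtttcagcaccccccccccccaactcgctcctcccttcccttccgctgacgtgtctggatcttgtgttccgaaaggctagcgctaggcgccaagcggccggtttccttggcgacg

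Mcm6 holds 3 octamers and Mcm5 2, and in both genes a pair of them overlaps by 4 bases to make a run of 12 capitals. E2f2 has a second RefSeq start, whose window holds no octamer. Of the 40 members in the count table, 32 had at least 1 window in RefSeq's table, and 12 of these 32 (37.5%) held an octamer in any of their windows. The share was 4.53% of 9042 genes that were tested on overexpression and had a window, and 2.61% of all 27025 genes with one. These are matches of letters in a fixed window, not measured binding sites.

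The levels of the members, compared per length as RPKM in the GFP libraries, spanned from 0.0829 ± 0.00724 for E2f2 (SD, n = 3) and 0.2404 ± 0.0189 for Mcm10 to 49.4 ± 1.75 for Pcna among genes whose feature held no sign of another gene. Rfc4 was listed at 105 ± 2.57 RPKM, but its feature in the deposited table is 4540 bases long against 1534 exon bases in the mm9 annotation. Its exons overlap those of Eif4a2, a translation initiation factor on the opposite strand for which no separate level was used here, so the Rfc4 count cannot be told apart from reads of that gene. Features were also more than 1.2 times as long as the annotated exons for Ccne2 (8187 against 3495 bases, overlapping Ints8), Gins2 (7991 against 4097, overlapping Gse1), Pola2 (6608 against 2872), Prim2 (3532 against 2169) and Cdt1 (3439 against 2189). Mcm7, Rfc5, Pole, Lig1, Fen1, Tyms and E2f8 share exon bases with a neighbour, and the sources used here do not say whether strand was used in counting. The methods describe an mm9 genome altered so that fewer transcripts overlap, without saying which bases were taken out. The deposited features of Mcm7 (2396 against 4426 bases) and Rfc5 (2148 against 4669) are shorter than the annotated exons. These 13 members are uncertain in the sense that reads of another gene may be counted, and to what degree was not tested.

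Across the 4 groups, the mean log2 CPM of the replication genes was highest in GFP and lowest in shScr. Over the 40 members in the file it was 3.62, 3.64 and 3.62 in the GFP libraries, 3.44 to 3.47 in Dnmt3a, 3.19 to 3.23 in shScr and 3.35 to 3.36 in shDnmt3a. The 4 groups did not overlap in this mean. Their summed CPM, in which the Rfc4 feature weighs most, was 1279 to 1299 in GFP, 1265 to 1301 in Dnmt3a, 1112 to 1191 in shScr and 1206 to 1255 in shDnmt3a, so that in the sum GFP and Dnmt3a overlapped and shScr was again lowest. Of the 40 members in the file, 23 had their highest group mean in GFP and 9 in shDnmt3a, and 21 had their lowest in shScr and 11 in shDnmt3a. These counts order means alone, so they include Lig1 and genes whose groups overlapped. The same orders were not counted over all features, so whether they are particular to the members was not tested. In such cultures fewer cycling cells and less RNA per cell cannot be told apart.

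**Figure D1:**
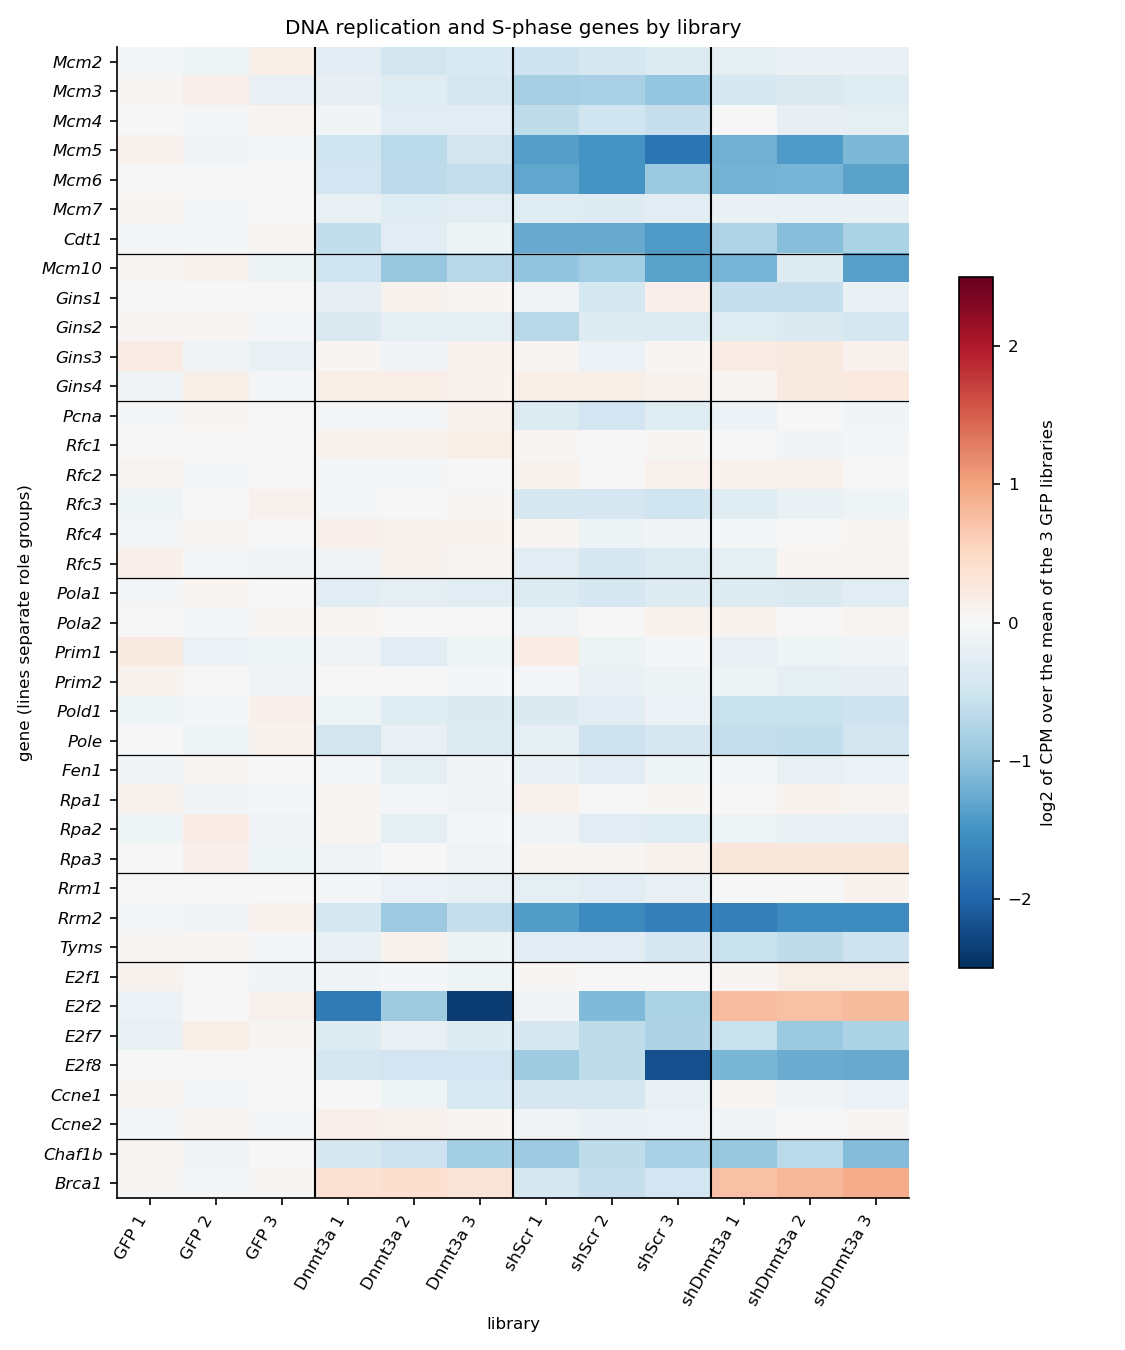
Levels of 39 members in each of the 12 libraries, as the log2 of the CPM over the mean of the 3 GFP libraries, with genes as rows grouped by role and libraries as columns grouped by treatment. Blue is below and red above the GFP mean. Mcm5, Mcm6, Cdt1 and Rrm2 are blue in the hairpin groups, where all 6 libraries of each gene lie below every GFP library. E2f2 is blue in the 3 Dnmt3a libraries, and E2f2 and Brca1 are red in the 3 shDnmt3a libraries.

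Overexpression of Dnmt3a lowered many replication genes, among them all 7 licensing genes measured. Comparing Dnmt3a with GFP with the quasi-likelihood test of edgeR, with p adjusted over all 14168 features tested by the Benjamini-Hochberg method (called edgeR adjusted p from here on, with a call at an adjusted p under 0.05), 15 of 39 members fell, against 12.9% of all features. Another 3 rose, against 14.3% of all features, and 21 were not called. The share of members that fell was 38.5% and the share that rose 7.69%. The median log2 fold change was -0.12 over the members and -0.0066 over all features tested. Those that rose were Rfc1, Rfc4 and Brca1, and of the 3 the Rfc4 count is uncertain. Among the genes that fell, the counts of Mcm7, Cdt1, Gins2 and Pole are uncertain in the same sense. Of the licensing genes, Cdt1 and Mcm4 lost their calls under some alternatives, as given below.

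Knock-down of Dnmt3a raised more members than it lowered. Comparing shDnmt3a with shScr, 14 of 39 members rose, against 23.3% of 14115 features, and 2 fell, Pold1 and Tyms, against 22.5%. The shares were 35.9% and 5.13%, and 23 members were not called. The median log2 fold change was 0.064 over the members and -0.00027 over all features. The count of genes that fell was 1 without shScr replicate 3, which lost Pold1, and 1 without shDnmt3a replicate 2, which lost Tyms, and it was 1 again without the 13 uncertain members, Tyms being one of them.

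More members differed between the control groups than in either experiment. Comparing shScr with GFP, which differ in vector as well as in insert, 24 of 39 members were lower, against 22.2% of 14133 features. None of the 39 members was higher by edgeR's quasi-likelihood test, against 23.0% of features; at an unadjusted p under 0.05 the count was also 0, as it was with DESeq2. The median log2 difference was -0.34 over the members and -0.0053 over all features. This comparison shares its GFP libraries with the overexpression and its shScr libraries with the knock-down, so the same control values enter the comparisons that share them.

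**Figure D2:**
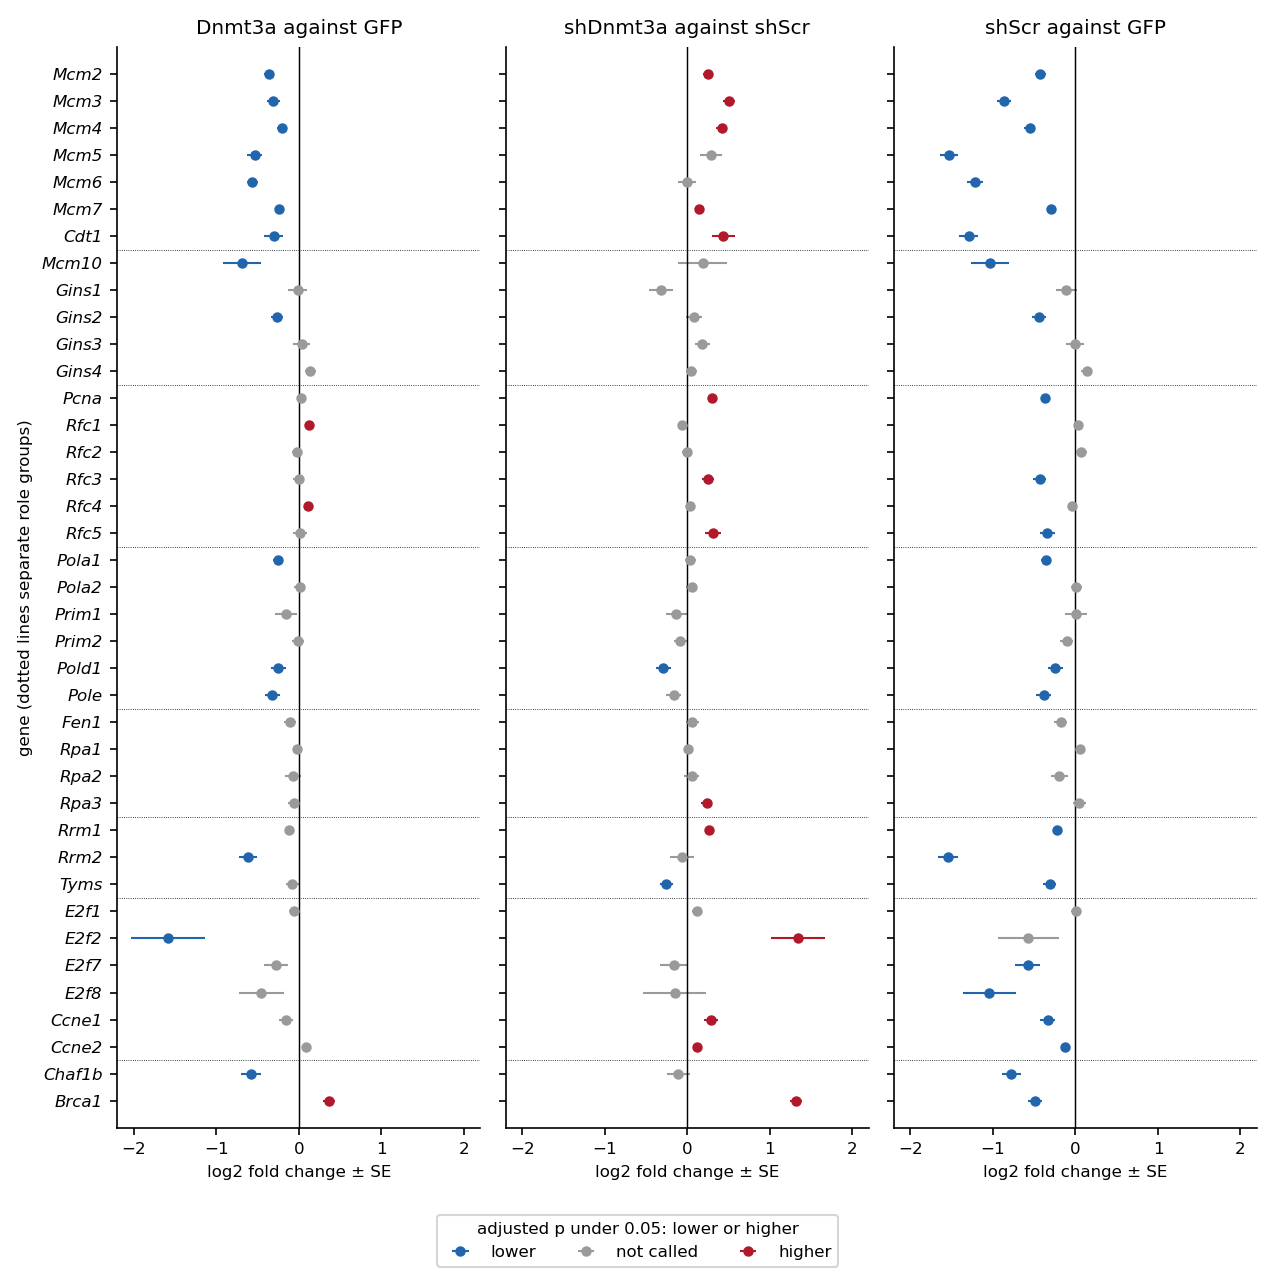
Log2 fold change of each of 39 members (points, with bars for the standard error) in 3 comparisons, with genes grouped by role. Blue and red mark genes called lower or higher at an edgeR adjusted p under 0.05 and grey marks genes not called. The 7 licensing genes at the top are blue on overexpression and in the control comparison, and 5 of them are red on knock-down.

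Whether the effects of knock-down and overexpression differed was tested directly, as the knock-down effect minus the overexpression effect in 1 fit of all 12 libraries. Here 17 of 39 members were above 0 at an edgeR adjusted p under 0.05, against 19.9% of 14491 features. The call of Chaf1b was lost in 9 of 18 alternatives, DESeq2 among them (adjusted p 0.0233 to 0.186 over the alternatives). That of Gins2 was lost in 4 (0.0115 to 0.118), and those of Rrm2 (0.00871 to 0.0555) and Rpa3 (0.0111 to 0.0807) in 2 each. Only Rfc1, the large subunit of the clamp loader, was below 0, against 20.4% of features, with a difference of -0.20 (SE 0.051, edgeR adjusted p = 0.00289). The overexpression and knock-down comparisons share no library, and 6 of 39 members fell in the first and rose in the second, against 3.63% of 13893 features tested in both: Mcm2, Mcm3, Mcm4, Mcm7, Cdt1 and E2f2. The difference was called for all 6. Pold1 fell in both, against 3.10% of features, and Brca1 rose in both, against 3.64%.

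**Figure D3:**
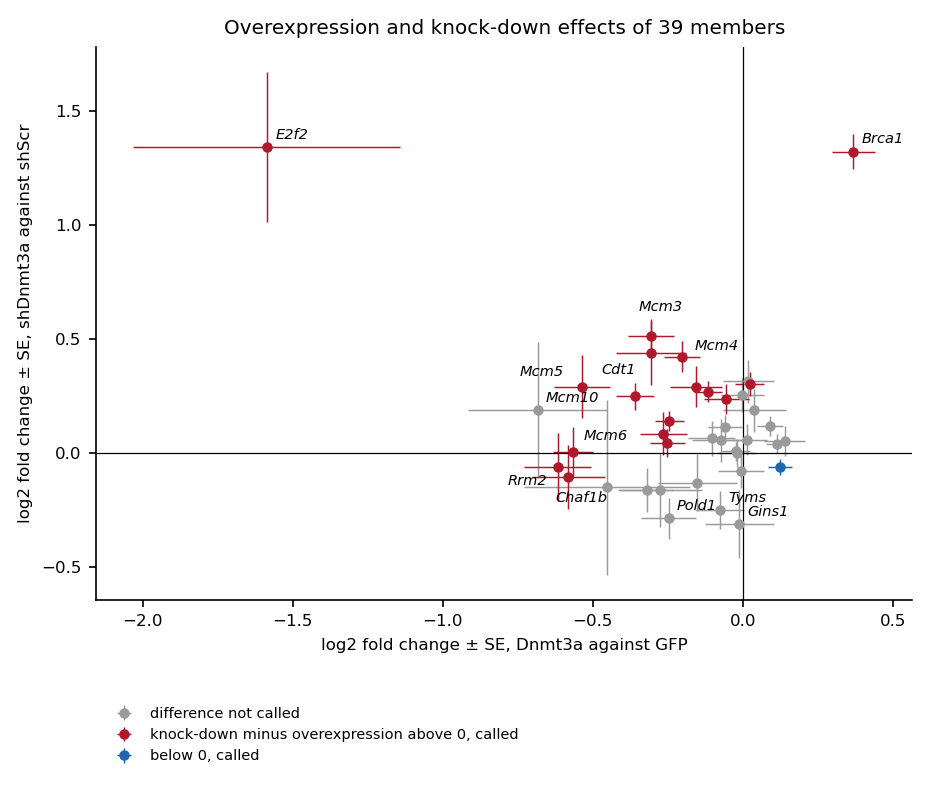
Log2 fold change on overexpression (horizontal axis) against that on knock-down (vertical axis) for 39 members, with bars for the standard errors. Red points are members whose knock-down effect was above their overexpression effect at an edgeR adjusted p under 0.05, and the blue point, Rfc1, is below. E2f2 stands alone at the upper left and Brca1 at the upper right, while the licensing genes Mcm3, Mcm4 and Cdt1 lie above 0 on one axis and below it on the other.

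All 7 licensing genes measured fell on overexpression, by log2 fold changes from -0.57 (Mcm6) to -0.20 (Mcm4), 5 rose on knock-down, where Mcm5 and Mcm6 were not called, and all 7 were lower in shScr than in GFP. Over all features, 12.9% fell on overexpression, 23.3% rose on knock-down and 22.2% were lower in shScr, and the counts of the smaller role groups that follow stand against the same shares. The summed level of the group was 164 to 170 CPM in GFP, 129 to 141 in Dnmt3a, 109 to 113 in shScr and 131 to 134 in shDnmt3a. Mcm6, a subunit of the helicase ring with 3 octamers in its window, stood at 20.8, 21.2 and 20.8 CPM in the GFP libraries, 15.1, 13.3 and 13.9 in Dnmt3a, 8.54, 7.51 and 11.04 in shScr and 9.22, 9.403 and 8.26 in shDnmt3a. All 3 Dnmt3a libraries were below all 3 GFP libraries, and the hairpin groups lay lower still and overlapped each other. Its change was -0.57 (SE 0.067, edgeR adjusted p = 3.47e-08) on overexpression and 0.0014 (SE 0.11, edgeR adjusted p = 0.993) on knock-down. Mcm5, another subunit of the ring, read 9.93, 8.79 and 9.07 CPM in the GFP libraries, 6.55, 5.77 and 6.73 in Dnmt3a, 3.55, 3.34 and 2.62 in shScr and 4.01, 3.47 and 4.26 in shDnmt3a. The GFP libraries were all above the Dnmt3a libraries, those were all above the hairpin libraries, and shScr and shDnmt3a overlapped. It fell by 0.54 on the log2 scale on overexpression (SE 0.093, edgeR adjusted p = 2.92e-05) and was not called on knock-down, at 0.29 (SE 0.14, edgeR adjusted p = 0.0913).

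Mcm3 and Mcm4 were the ring subunits with the clearest rise on knock-down. Mcm3 was at 18.4, 19.6 and 15.8 CPM in the GFP libraries, 15.7, 14.6 and 13.4 in Dnmt3a, 10.03, 10.2 and 9.23 in shScr and 13.5, 14.03 and 14.5 in shDnmt3a. Its shDnmt3a libraries lay above every shScr library and among the Dnmt3a libraries, with none reaching the GFP range. The log2 fold change was 0.51 (SE 0.075, edgeR adjusted p = 1.49e-05) on knock-down and -0.31 (SE 0.076, edgeR adjusted p = 0.00226) on overexpression. Mcm4 gave 28.8, 28.2 and 30.5 CPM in the GFP libraries, 27.7, 24.1 and 24.1 in Dnmt3a, 18.9, 20.8 and 19.6 in shScr and 29.2, 25.2 and 25.1 in shDnmt3a. The shScr libraries were the lowest for this gene, and shDnmt3a overlapped both GFP and Dnmt3a. It rose by 0.42 (SE 0.068, edgeR adjusted p = 3.97e-05) on knock-down, and its fall on overexpression, -0.20 (SE 0.060, edgeR adjusted p = 0.0108), was lost when GFP replicate 3, Dnmt3a replicate 2 or Dnmt3a replicate 3 was left out (adjusted p 0.00263 to 0.0858 over the alternatives). Mcm2 and Mcm7, which complete the ring, fell by 0.36 and 0.25 on the log2 scale on overexpression and rose by 0.25 and 0.14 on knock-down. Cdt1, the loading factor, fell by 0.31 on overexpression with an edgeR adjusted p of 0.0466, which was lost with DESeq2, in 1 fit of all 12 libraries and when any library but Dnmt3a replicate 3 was left out (adjusted p 0.0157 to 0.338 over the alternatives). It rose by 0.44 on knock-down (edgeR adjusted p = 0.0151), lost without shScr replicate 3 or shDnmt3a replicate 1 or 3 (adjusted p 0.00859 to 0.06802 over the alternatives). In the direct test of the difference, all 7 licensing genes were called, from 0.38 for Mcm7 to 0.82 for Mcm5.

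Among the firing factors, 2 of 5 fell on overexpression and none was called on knock-down, where 1 had an unadjusted p under 0.05 by edgeR's quasi-likelihood test. Mcm10, which helps activate the loaded helicase, was a low gene at 1.32, 1.39 and 1.19 CPM in the GFP libraries, 0.923, 0.672 and 0.8098 in Dnmt3a, 0.659, 0.709 and 0.518 in shScr and 0.585, 1.04 and 0.508 in shDnmt3a. The Dnmt3a libraries were below the GFP libraries and the hairpin groups overlapped the Dnmt3a range. Its fall on overexpression was -0.68 (SE 0.23, edgeR adjusted p = 0.02403), on 19 to 63 counts a library, and was lost with DESeq2 and on leaving out GFP replicate 1 or 2 or Dnmt3a replicate 2 or 3 (adjusted p 0.0134 to 0.08696 over the alternatives). Gins2, a subunit of the GINS complex that joins the helicase, had 13.3, 13.4 and 12.7 CPM in the GFP libraries, 10.2, 11.2 and 11.3 in Dnmt3a, 8.08, 10.4 and 10.4 in shScr and 10.7, 10.3 and 9.62 in shDnmt3a. It was lower in all 9 other libraries than in any GFP library, with a change of -0.26 (SE 0.077, edgeR adjusted p = 0.00873) on overexpression, lost without Dnmt3a replicate 1 (adjusted p 0.00708 to 0.0697 over the alternatives). Gins1, another GINS subunit, was at 4.85, 4.84 and 4.901 CPM in the GFP libraries, 4.21, 5.17 and 5.06 in Dnmt3a, 4.58, 3.598 and 5.34 in shScr and 3.26, 3.26 and 4.31 in shDnmt3a, and the groups overlapped in both experiments. Its knock-down value was -0.31 (SE 0.15, edgeR adjusted p = 0.09495), called lower with no filter on low counts and without shScr replicate 2 or shDnmt3a replicate 3 (adjusted p 0.0171 to 0.389 over the alternatives). For Gins3 the CPM were 6.73, 5.804 and 6.603 in shScr and 7.29, 7.498 and 6.91 in shDnmt3a, against 7.34, 6.11 and 5.69 in GFP and 6.64, 6.12 and 6.91 in Dnmt3a. The shDnmt3a libraries lay above the shScr libraries without passing the test, at 0.19 (SE 0.094, edgeR adjusted p = 0.118). Gins4, the remaining subunit, was not called in any comparison.

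None of the 6 genes of the clamp and its loader fell on overexpression (none at an unadjusted p under 0.05 by edgeR's quasi-likelihood test, and none with DESeq2), and 2 rose. On knock-down 3 rose. Pcna, the sliding clamp, had 60.2, 64.6 and 61.8 CPM in the GFP libraries, 60.5, 60.95 and 67.1 in Dnmt3a, 49.2, 44.5 and 50.6 in shScr and 56.3, 61.6 and 59.7 in shDnmt3a. The GFP, Dnmt3a and shDnmt3a libraries overlapped and the 3 shScr libraries lay below them all. Its change was 0.022 (SE 0.047, edgeR adjusted p = 0.774) on overexpression, 0.30 (SE 0.052, edgeR adjusted p = 8.33e-05) on knock-down and -0.37 (SE 0.052, edgeR adjusted p = 4.68e-06) between the controls. Rfc3, a small subunit of the loader with 2 octamers in its window, had 14.8, 15.7 and 16.97 CPM in the GFP libraries, 15.2, 15.6 and 16.1 in Dnmt3a, 11.8, 11.8 and 11.2 in shScr and 12.8, 14.03 and 14.6 in shDnmt3a. The shScr libraries were again the lowest, and the GFP and Dnmt3a libraries overlapped. It rose by 0.25 (SE 0.075, edgeR adjusted p = 0.00932) on knock-down, lost without shDnmt3a replicate 3 (adjusted p 0.00519 to 0.0515 over the alternatives). Rfc5, a further small subunit, rose by 0.31 (SE 0.094, edgeR adjusted p = 0.00998), lost without shDnmt3a replicate 2 (adjusted p 0.00199 to 0.0592 over the alternatives). Rfc1 read 97.4, 98.5 and 99.2 CPM in the GFP libraries, 105, 105 and 110.1 in Dnmt3a, 102, 99.2 and 100.2 in shScr and 99.2, 94.2 and 94.9 in shDnmt3a. Its rise in Dnmt3a was small, 0.12 (SE 0.040, edgeR adjusted p = 0.0174), with no overlap between the groups, and it was lost without GFP replicate 1 or Dnmt3a replicate 3 (adjusted p 0.0101 to 0.104 over the alternatives). The Rfc4 feature gave 463, 486 and 476 CPM in the GFP libraries, 519, 515 and 502 in Dnmt3a, 491, 437 and 452 in shScr and 457, 472 and 489 in shDnmt3a, and its change on overexpression, 0.11 (SE 0.037, edgeR adjusted p = 0.0205), was lost without GFP replicate 1 or 3 or Dnmt3a replicate 1 or 2 (adjusted p 0.00580 to 0.103 over the alternatives). Rfc2 was not called in any comparison.

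Of the 6 polymerase and primase genes, 3 fell on overexpression and 1 on knock-down, where 16.7% stood below the 22.5% of all features that fell. Pola1, the catalytic subunit of polymerase alpha, stood at 24.4, 25.6 and 24.7 CPM in the GFP libraries, 20.7, 21.2 and 20.6 in Dnmt3a, 19.6, 18.7 and 19.9 in shScr and 19.8, 19.3 and 20.6 in shDnmt3a. The GFP libraries were above the other 9, and the Dnmt3a libraries were at or above the top of the hairpin libraries. It fell by 0.25 on the log2 scale on overexpression (SE 0.060, edgeR adjusted p = 0.00141). Pole, the catalytic subunit of the leading-strand polymerase, had 10.9, 10.03 and 11.4 CPM in the GFP libraries, 7.82, 9.55 and 8.58 in Dnmt3a, 9.197, 7.54 and 8.03 in shScr and 7.16, 7.06 and 7.895 in shDnmt3a. All Dnmt3a and shScr libraries lay below the GFP libraries, with changes of -0.32 (SE 0.089, edgeR adjusted p = 0.00576) on overexpression, lost without Dnmt3a replicate 1 (adjusted p 0.00226 to 0.0576 over the alternatives), and -0.16 (SE 0.095, edgeR adjusted p = 0.175) on knock-down. Pold1, the catalytic subunit of the lagging-strand polymerase, was at 9.17, 9.61 and 10.8 CPM in the GFP libraries, 9.15, 7.995 and 7.64 in Dnmt3a, 7.65, 8.25 and 8.901 in shScr and 6.71, 6.73 and 6.85 in shDnmt3a. Here the shDnmt3a libraries were the lowest of all, below every shScr library. The gene fell in both experiments, with log2 fold changes of -0.25 (SE 0.091, edgeR adjusted p = 0.0404) and -0.29 (SE 0.090, edgeR adjusted p = 0.0131), and the first call was lost with DESeq2 and without GFP replicate 2 or 3 or Dnmt3a replicate 2 or 3 (adjusted p 0.0174 to 0.225 over the alternatives). The second was lost without shScr replicate 3 (adjusted p 0.00634 to 0.0602 over the alternatives). Pola2, Prim1 and Prim2 were not called in any comparison.

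The genes that process Okazaki fragments and bind single strands gave few calls. None of the 4 tested was called on overexpression (none at an unadjusted p under 0.05 by edgeR's quasi-likelihood test, and none with DESeq2), and 1 rose on knock-down. Rpa3, the smallest subunit of the single-strand binding complex, had 13.5, 14.8 and 12.6 CPM in the GFP libraries, 12.8, 13.7 and 12.9 in Dnmt3a, 13.9, 13.8 and 14.4 in shScr and 16.5, 16.6 and 16.6 in shDnmt3a. The shDnmt3a libraries were above the other 9, and the GFP libraries overlapped both Dnmt3a and shScr. Its knock-down change was 0.24 (SE 0.065, edgeR adjusted p = 0.00545), while its partner subunits Rpa1 and Rpa2 were at 0.0058 (SE 0.043, edgeR adjusted p = 0.929) and 0.054 (SE 0.094, edgeR adjusted p = 0.676). Rpa2 had 7.302, 8.89 and 7.37 CPM in the GFP libraries, 7.96, 6.62 and 7.64 in Dnmt3a, 7.51, 6.57 and 6.34 in shScr and 7.27, 7.02 and 6.94 in shDnmt3a, and Fen1, the nuclease that trims Okazaki fragments, had 12.5, 13.6 and 13.1 CPM in the GFP libraries, 12.6, 11.1 and 12.5 in Dnmt3a, 11.6, 10.7 and 12.2 in shScr and 12.7, 11.6 and 11.7 in shDnmt3a. Both genes overlapped between the groups of each experiment, with overexpression values of -0.072 (SE 0.098, edgeR adjusted p = 0.639) and -0.10 (SE 0.077, edgeR adjusted p = 0.335).

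Of the 3 genes of nucleotide supply, 1 fell on overexpression, and on knock-down 1 fell and 1 rose. Rrm1 and Rrm2 are subunits of ribonucleotide reductase, the enzyme that makes deoxynucleotides. Rrm2, the S-phase subunit, with no octamer in its window, was at 6.72, 6.61 and 7.42 CPM in the GFP libraries, 5.08, 3.68 and 4.58 in Dnmt3a, 2.64, 2.29 and 2.104 in shScr and 2.12, 2.32 and 2.31 in shDnmt3a. The GFP libraries were above the Dnmt3a libraries and those were above the hairpin libraries, which overlapped. It fell (log2 fold change -0.62, SE 0.11, edgeR adjusted p = 5.00e-05) on overexpression and was at -0.061 (SE 0.15, edgeR adjusted p = 0.774) on knock-down, and the control difference was -1.55 (SE 0.12, edgeR adjusted p = 6.67e-10). Rrm1, the large subunit, had 60.3, 60.3 and 59.2 CPM in the GFP libraries, 58.5, 54.2 and 52.7 in Dnmt3a, 51.2, 49.04 and 52.6 in shScr and 60.2, 59.6 and 64.1 in shDnmt3a. The GFP and shDnmt3a libraries overlapped and lay above the Dnmt3a and shScr libraries. Rrm1 rose by 0.27 (SE 0.046, edgeR adjusted p = 8.44e-05) on knock-down and missed the threshold on overexpression, at -0.12 (SE 0.046, edgeR adjusted p = 0.0542), where it was called lower without Dnmt3a replicate 1 and with a filter of 1 CPM in 3 libraries (adjusted p 0.0225 to 0.262 over the alternatives). Tyms, which makes thymidylate, had 13.1, 13.1 and 12.3 CPM in the GFP libraries, 11.3, 13.6 and 11.7 in Dnmt3a, 10.5, 10.7 and 9.52 in shScr and 8.69, 8.29 and 8.94 in shDnmt3a. Its shDnmt3a libraries were lower than all others, with a knock-down change of -0.25 (SE 0.083, edgeR adjusted p = 0.0183), lost without shScr replicate 2 or shDnmt3a replicate 2 (adjusted p 0.0110 to 0.08003 over the alternatives).

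E2f2, an activating E2F factor, was the member with the largest fold changes in both experiments and among the lowest in level. It had 0.357, 0.397 and 0.425 CPM in the GFP libraries, 0.115, 0.212 and 0.0759 in Dnmt3a, 0.373, 0.184 and 0.227 in shScr and 0.668, 0.651 and 0.677 in shDnmt3a. The Dnmt3a libraries were all below the GFP libraries and the shDnmt3a libraries above all others, while GFP and shScr overlapped. The counts were few: 17, 16 and 15 in GFP, 4, 6 and 3 in Dnmt3a, 13, 7 and 7 in shScr and 24, 27 and 24 in shDnmt3a. It fell on overexpression (log2 fold change -1.59, SE 0.44, edgeR adjusted p = 0.00651), a call lost with DESeq2 and without Dnmt3a replicate 3 (adjusted p 0.00606 to 0.0673 over the alternatives), and rose on knock-down by 1.34 (SE 0.33, edgeR adjusted p = 0.002298), a call kept whichever library was left out. The difference between the effects was 2.92 (SE 0.54, edgeR adjusted p = 6.23e-05). A stricter filter of 1 CPM in 3 libraries left the gene out of every test.

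None of the other E2F factors was called in either experiment. E2f1, also an activator, was at 30.6 ± 1.703 CPM in GFP, 29.4 ± 0.7899 in Dnmt3a, 30.6 ± 0.395 in shScr and 33.1 ± 1.39 in shDnmt3a (SD, n = 3), and was not called in any comparison, except that it rose on knock-down without shDnmt3a replicate 1 (adjusted p 0.0457 to 0.254 over the alternatives). E2f7 and E2f8, the atypical repressors of the family, were not called in either experiment and were lower in shScr than in GFP by 0.58 and 1.05 on the log2 scale, the E2f8 call being lost without shScr replicate 3 (adjusted p 0.00483 to 0.0691 over the alternatives). A filter of 1 CPM in 3 libraries left E2f8 out. The Dnmt3a libraries of E2f8 all lay below its GFP libraries without passing the test, at -0.45 (SE 0.28, edgeR adjusted p = 0.235). Ccne1, the cyclin E that drives entry into S phase, had 11.5, 10.6 and 10.9 CPM in the GFP libraries, 11.02, 10.2 and 8.48 in Dnmt3a, 8.22, 8.17 and 9.68 in shScr and 11.4, 10.4 and 9.95 in shDnmt3a. The shDnmt3a libraries were above the shScr libraries and overlapped both GFP and Dnmt3a. It rose by 0.29 (SE 0.089, edgeR adjusted p = 0.0114) on knock-down, lost without shScr replicate 2 or shDnmt3a replicate 1 (adjusted p 0.00446 to 0.0622 over the alternatives). The Ccne2 feature, which may hold reads of Ints8, had 68.4, 73.1 and 66.8 CPM in the GFP libraries, 76.1, 74.7 and 70.6 in Dnmt3a, 65.4, 61.5 and 62.9 in shScr and 65.96, 69.1 and 70.8 in shDnmt3a. Its groups overlapped on overexpression, at 0.091 (SE 0.044, edgeR adjusted p = 0.127), and its rise on knock-down, 0.12 (SE 0.043, edgeR adjusted p = 0.0327), was lost with DESeq2, with a replicate block and in 4 of 6 leave-one-out fits (adjusted p 0.0157 to 0.147 over the alternatives).

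Brca1, which protects stalled forks and repairs breaks by recombination, rose in both experiments, with the smallest adjusted p of the members that rose in each. It had 12.1, 11.6 and 12.1 CPM in the GFP libraries, 15.3, 15.9 and 14.98 in Dnmt3a, 8.796, 8.06 and 8.58 in shScr and 19.7, 21.1 and 22.6 in shDnmt3a. No group overlapped another: shScr was the lowest, then GFP, then Dnmt3a, and shDnmt3a the highest. The change was 0.37 (SE 0.072, edgeR adjusted p = 1.59e-04) on overexpression, 1.32 (SE 0.076, edgeR adjusted p = 3.46e-11) on knock-down and -0.49 (SE 0.080, edgeR adjusted p = 2.68e-05) between the controls. The difference between knock-down and overexpression was 0.95 (SE 0.10, edgeR adjusted p = 8.25e-09). Chaf1b, a subunit of the chromatin assembly factor that places histones behind the fork, had 5.88, 5.29 and 5.64 CPM in the GFP libraries, 4.24, 3.93 and 3.11 in Dnmt3a, 2.98, 3.598 and 3.17 in shScr and 2.896, 3.496 and 2.65 in shDnmt3a. All 9 other libraries lay below the GFP libraries. It fell (log2 fold change -0.58, SE 0.12, edgeR adjusted p = 3.31e-04) on overexpression and was at -0.11 (SE 0.14, edgeR adjusted p = 0.577) on knock-down.

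**Figure D4:**
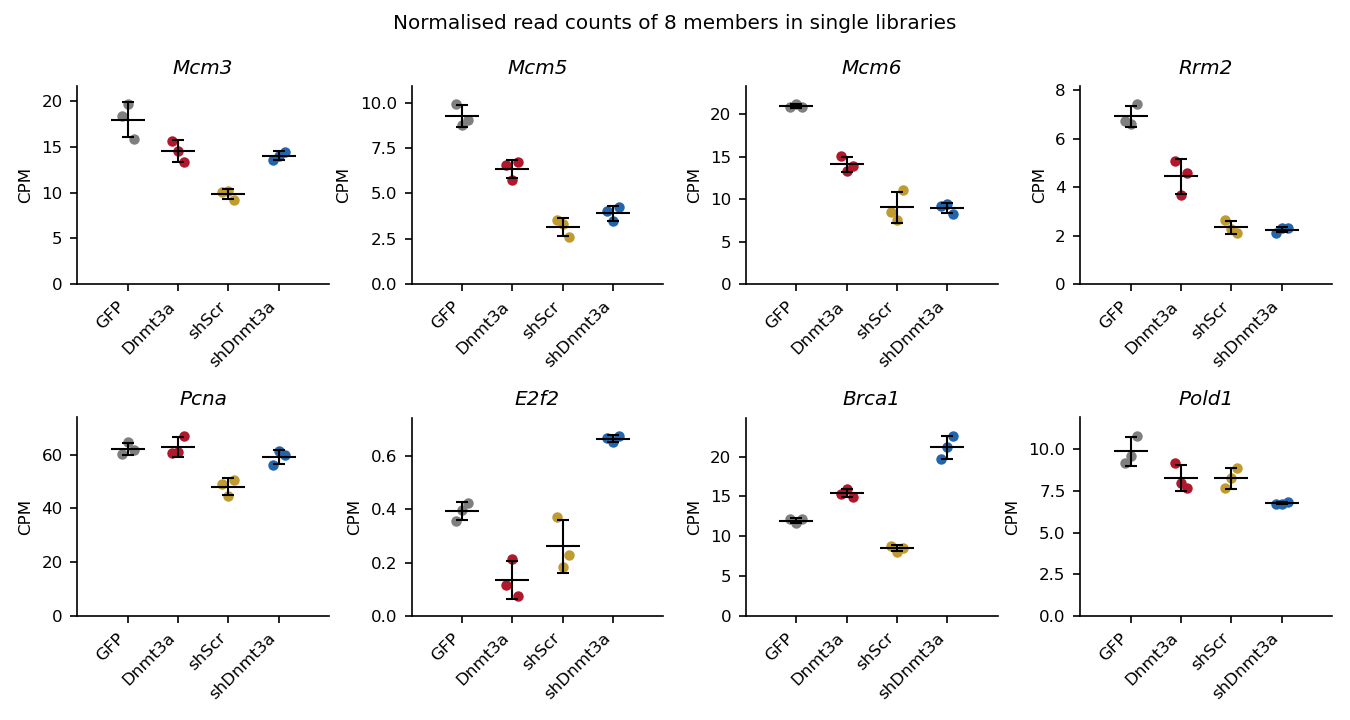
CPM of 8 members in single libraries (points), with the mean as a line and the SD as bars (n = 3 libraries a group); each vertical axis starts at 0. Mcm5, Mcm6 and Rrm2 step down from GFP to Dnmt3a to the hairpin groups, Pcna is low in shScr, E2f2 and Brca1 are highest in shDnmt3a, and Pold1 is lowest there.

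An E2F octamer stood in the promoter window of most members that fell on overexpression and of few that were not called. Of 12 members with a window that fell on overexpression, 8 held an octamer, and of 16 that were tested and not called, 3 did. Among the 8 were Mcm3, Mcm5, Mcm6, Mcm7 and Cdt1, of the licensing group, whose measured genes all fell. The others were Pola1, Pold1 and E2f2, and the calls of Cdt1, Pold1 and E2f2 were lost with DESeq2. The share that fell among all tested genes with an octamer was not counted. TTTGGCGC, the octamer of the 4 with the widest gap, was in 6 of the 12 genes that fell, in 0 of the 16 not called and in 1.12% of the 9042 tested genes. TTTCCCGC was in 3 of the 12, 3 of the 16 and 2.25% of the tested genes. TTTCGCGC was in 3, 1 and 0.73%, and TTTGCCGC in 0, 0 and 0.62%. The 11 tested members with an octamer had a median log2 fold change of -0.28 on overexpression, 0.19 on knock-down and -0.57 between shScr and GFP. The 20 without one had -0.074, 0.061 and -0.27. The split was not complete. Mcm2, Mcm10, Rrm2 and Chaf1b fell on overexpression without an octamer in the window, and Gins3, Rfc3 and E2f7 held one and were not called. Member windows also held more CG pairs (median 24.5, against 20 in the tested genes), and CCAAT, counted on both strands, was in 65.6% of them against 38.9%. The hexamer TTTGAA, known as CHR, was in 12.5% against 12.2%. Within the members the CG count did not go with the fall: its median was 24 in the 12 that fell and 27 in the 16 not called. These shares are descriptions with no test.

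**Figure D5:**
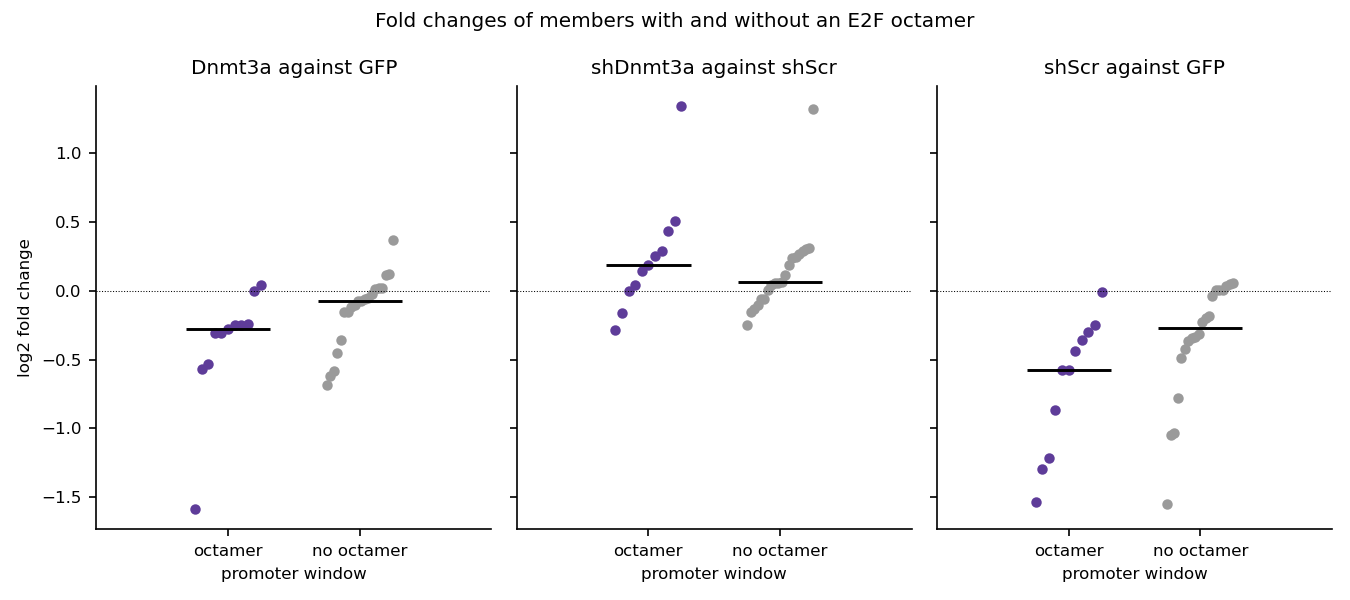
Log2 fold change of members with (11 genes) and without (20 genes) an E2F octamer in a RefSeq promoter window, in 3 comparisons, with the median as a line. The median of the genes with an octamer is further from 0 than that of the others in each panel, and the ranges of both sets overlap.

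How closely the members moved together was described by Pearson correlations of log2 CPM over the 12 libraries, which share groups and depth. The median over 741 pairs of members was 0.30, with 503 pairs positive, and once group means were removed it was 0.036, with 404 positive. The genes whose pattern was most like the mean of the other members were Mcm5 (r = 0.94), Mcm3 (0.93), Pola1 (0.92), Cdt1 (0.90) and Rrm2 (0.88), and the least like it was Gins4, at -0.51.

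Other genes of replication were read from the same fits. Of 43 other replication factors tested, 7 fell and 2 rose on overexpression, 4 fell and 18 rose on knock-down, and 23 were lower and 3 higher in shScr than in GFP. On overexpression 16.3% fell, near the 12.9% of all features, and 4.65% rose, against 14.3%. On knock-down 9.302% fell and 41.9% rose, against 22.5% and 23.3% of features. In shScr 53.5% were lower than in GFP, against 22.2%, and 6.98% higher, against 23.0%. Uhrf1, a factor that helps the maintenance methyltransferase Dnmt1 to copy methylation marks to new strands, fell (log2 fold change -0.72, SE 0.086, edgeR adjusted p = 3.27e-08) on overexpression, and Hells, a remodeler that works with DNA methylation, also fell (-0.48, SE 0.084, edgeR adjusted p = 3.51e-05). On knock-down Pold4, a small subunit of polymerase delta, rose by 0.55 (SE 0.052, edgeR adjusted p = 4.38e-08) and Asf1b, a histone chaperone, by 0.92 (SE 0.11, edgeR adjusted p = 1.45e-06). Of 21 other genes of nucleotide supply, 5 fell and 3 rose on overexpression, and 10 fell and 4 rose on knock-down. The 14.3% that rose on overexpression equalled the share of all features and the 19.1% that rose on knock-down was below its 23.3%, while 23.8% and 47.6% fell, against 12.9% and 22.5%. Named by the smallest p, these were Samhd1, a dNTP hydrolase, at -0.32 and Ctps2, a CTP synthase, at 0.23 on overexpression, and the nucleoside diphosphate kinases Nme1 at -0.64 and Nme2 at -0.40 on knock-down.

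Regulators of the G1 to S step were mixed. Of 19 genes of the E2F, RB, G1 cyclin and CDK list, 5 fell and 0 rose on overexpression by edgeR's quasi-likelihood test (0 rose at an unadjusted p under 0.05), and 1 fell and 4 rose on knock-down. The 21.1% that rose on knock-down was near the 23.3% of all features, and the 26.3% that fell on overexpression stood against 12.9%. The 5.26% that fell on knock-down was below 22.5%. Named by the smallest p, Ccnd1, cyclin D1, fell (log2 fold change -0.42, SE 0.047, edgeR adjusted p = 1.40e-08) on overexpression and Myc, a growth transcription factor, also fell (-0.67, SE 0.078, edgeR adjusted p = 2.88e-08). Ccnd3, cyclin D3, rose by 0.58 (SE 0.035, edgeR adjusted p = 9.02e-11) on knock-down and Cdk2, the kinase that cyclin E binds, by 0.59 (SE 0.062, edgeR adjusted p = 2.27e-07). Of 17 CDK inhibitors and p53 targets, 7 fell and 5 rose on overexpression (41.2% and 29.4%, against 12.9% and 14.3% of features), and 6 fell and 2 rose on knock-down (35.3% and 11.8%, against 22.5% and 23.3%). The CDK inhibitor Cdkn2c rose by 0.35 and the stress gene Gadd45a fell by 0.24 on overexpression, and on knock-down Gadd45a fell by 0.78 and Btg2, a p53 target that restrains growth, rose by 0.91 on the log2 scale.

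The mitosis genes, which act after S phase, were lower on overexpression in 15 of 26 and higher in 1, and on knock-down 1 of 25 fell and 6 rose. They were lower in shScr than in GFP in 23 of 26. The 57.7% that fell on overexpression stood against 12.9% of all features and the 88.5% lower in shScr against 22.2%, while the 24% that rose on knock-down was near the 23.3% of all features. The 3.85% that rose on overexpression and the 4% that fell on knock-down were below 14.3% and 22.5%. Their summed level was 244 to 252 CPM in GFP, 197 to 212 in Dnmt3a, 159 to 164 in shScr and 169 to 181 in shDnmt3a, the same order of groups as in the members' mean log2 CPM. Top2a, topoisomerase II alpha, fell (log2 fold change -0.76, SE 0.062, edgeR adjusted p = 7.72e-12) on overexpression and Mki67, the proliferation marker, also fell (-0.98, SE 0.087, edgeR adjusted p = 8.00e-11). Anln, a scaffold of the division furrow, rose by 0.28 and the spindle factor Tpx2 by 0.44 on knock-down.

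Markers of cell type moved in the same libraries. Of 14 adipocyte markers, 13 rose on overexpression, against 14.3% of all features, where Adipoq changed by 0.38 and Fabp4 by 0.37, and their summed level was 26050 to 27210 CPM in GFP, 32390 to 32790 in Dnmt3a, 22670 to 23420 in shScr and 22050 to 22510 in shDnmt3a. On knock-down 5 fell and 3 rose (35.7% and 21.4%, against 22.5% and 23.3% of features), with Retn at -1.25 and Cfd at -0.26. Of 14 preadipocyte and fibroblast markers tested, 7 fell and 1 rose on overexpression (50% and 7.14%, against 12.9% and 14.3%), with Fn1 at -0.56 and Col1a1 at -0.50, and 5 fell and 4 rose on knock-down (35.7% and 28.6%), with Ly6a at -1.35 and Col3a1 at 0.61. Their summed level was 8328 to 8749 CPM in GFP, 7918 to 8584 in Dnmt3a, 9671 to 10450 in shScr and 13990 to 14260 in shDnmt3a. Col3a1 alone was 11550.0, 11580.0 and 11650.0 CPM in shDnmt3a against 7404, 7458 and 7901 in shScr. The part of these changes in the levels of the replication genes was not tested.

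Leukocyte markers were low in all groups, at a summed 26.0 to 38.0 CPM over 12 genes. Of 8 tested, 1 fell and 2 rose on overexpression (Cd53 at 0.80, Cd68 at 0.55), and 2 fell and 4 rose on knock-down (Mpeg1 at -1.64, Cd53 at 1.94). These are 12.5% and 25% on overexpression, against 12.9% and 14.3% of all features. On knock-down they are 25% and 50%, against 22.5% and 23.3%. The shares that fell were near those of all features, and 8 genes are few for such shares. Of 12 control genes used in every cell, 1 fell and 6 rose on overexpression and 2 fell and 6 rose on knock-down. The 50% that rose in each stood against 14.3% and 23.3% of all features, and the 8.33% and 16.7% that fell were below 12.9% and 22.5%. Pgk1, a glycolytic enzyme often used as a control, was at 1599 ± 16.1 CPM in GFP, 1854 ± 13.8 in Dnmt3a, 902 ± 32.3 in shScr and 2656 ± 37.4 in shDnmt3a (SD, n = 3). It rose by 1.56 and Gapdh by 1.60 on knock-down, and on overexpression Pgk1 rose by 0.22 and B2m by 0.29 on the log2 scale, so these control genes were not level across the groups compared. Their part in the results was not tested.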

How the data were processed

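The members and the gene lists were chosen with earlier results of these data known. According to the methods and the submitters' processing notes, the authors removed ribosomal RNA, made libraries with a TruSeq RNA kit, aligned reads to mm9 with TopHat2 (2.0.14), handled them with Picard (2.2.4) and SAMtools (0.1.19) and counted them with featureCounts (1.4.6). For counting, the methods describe an mm9 genome altered so that fewer transcripts overlap. The deposited values are raw whole-number read counts for each feature, not normalized by the authors.

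From these counts, edgeR 4.0.16 (R 4.3.3) was run on the whole table with TMM scaling, its default filter (minimum count 10), the quasi-likelihood test and Benjamini-Hochberg adjustment over all features tested, separately for Dnmt3a against GFP, shDnmt3a against shScr and shScr against GFP, and on all 12 libraries for the difference of the effects. Standard errors match the F statistic. CPM and RPKM, the latter with the deposited feature lengths, use factors over 12 libraries. The procedure was also run on simulated counts drawn with the same dispersion for every feature, a simpler setting than these data, and no result here rests on that run. Values in single libraries are given for the 2 members of each role group with the smallest p in each experiment and for members past a log2 fold change of 1, and 2 genes of each other list are named by the same rule. Exon overlaps come from GENCODE on mm9 and promoters from RefSeq on GRCm38.p6. Alternatives were RLE factors, DESeq2 (1.42.0), other filters, a block for replicate number, 1 fit of all libraries, counts summed by symbol and leaving out each library.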

Additional observations from a re-analysis of the deposited data

How the results depend on the processing

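No member's call changed direction under any alternative. Over the fits that left out 1 library, the members higher on overexpression numbered 1 to 5 (without GFP replicate 1, 1; without GFP replicate 2, 5, with Gins4 and Ccne2 added), those lower on knock-down 1 to 3, those higher in shScr than in GFP 0 to 1 (Gins4, without GFP replicate 2), and those whose knock-down effect lay below the overexpression effect 1 to 2 (Gins1 added without shScr replicate 2). Members lower on overexpression numbered 11 to 13 in those fits, and 11 with DESeq2, which lost Cdt1, Mcm10, Pold1 and E2f2. Leaving out the 13 members of uncertain features, an alternative chosen after seeing the data, left 11 lower and 2 higher on overexpression, 1 lower and 10 higher on knock-down, and 16 lower and 0 higher in shScr than in GFP. Same-numbered libraries did not deviate together (correlations of -0.090 to 0.013 in the 3 comparisons, against -0.049 to 0.078 for differently numbered ones). With 3 libraries a group this cannot show whether the samples were paired, and no pairing was used in the main fits. With a replicate block, 15 members fell on overexpression, 13 rose on knock-down and 23 were lower in shScr, the last 2 counts losing Ccne2, and 16 differed upward between the effects, losing Chaf1b. The 468 values of named genes of the other lists all kept their direction and call. Depth limits E2f2, Mcm10, E2f8 and Lig1, with at most 63 counts in any library.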
